A study of Ovis aries with 10 samples.

Results

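LMO7 was the host gene of 9 of the 8721 circular RNAs (circRNAs) that had entries in 10 muscle samples of small-tailed Han sheep. The members were chosen by host name and by a listed junction read count, as all rows of the deposited circRNA table whose host is named LMO7 and that have an entry for at least 1 of these samples. A further 2 LMO7 rows had no entry in any of them and were left out. The member with the fewest reads, novel_circ_0010460, had 3 junction reads in 1 library. The gene was singled out with its junction reads known, so the levels and the order of its isoforms are given as a description, without a test. The rule itself does not use the difference between the groups.

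The samples were 5 from sheep after sham surgery and 5 from ovariectomized sheep, in a study of how estrogen affects muscle growth in females. Ovariectomy removes the ovaries, the main source of estrogen. The labels name the longissimus dorsi, a back muscle, and also primary myoblasts, and they give a culture protocol with estradiol that no sample is tied to, so whether tissue or cultured cells were sequenced is not settled. They give no age, and they leave unsaid whether separate animals gave the libraries, so the spread behind each p-value is that between samples and may be technical.

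LMO7 (LIM domain only 7) is a large scaffold protein with a calponin homology, a PDZ and a LIM domain. At adherens junctions it connects the nectin partner afadin with the actin crosslinker alpha-actinin, and in muscle it binds emerin, the nuclear envelope protein whose loss causes a form of Emery-Dreifuss muscular dystrophy. A circRNA forms when the end of an exon is spliced back to the start of the same or an earlier exon. Reads across that back-splice junction identify the circle, while reads elsewhere in the same exons can come from linear or circular RNA.

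The libraries held 35731 to 67061 junction reads in total. Ovariectomized replicate 5 was the deepest, the others reaching at most 49887, and its log2 read profile over all circRNAs was the least like the rest, with a mean correlation of 0.572 to the other libraries where each of the others had 0.599 to 0.620. Results that rest on it are therefore also given without it. Of 15 skeletal muscle fiber markers 13 hosted a circRNA, among them TTN, NEB, DMD and ACTA1. Of 11 myoblast and satellite cell markers 3 did (DES, NCAM1 and MET), with PAX7, MYF5, MYOD1 and MYOG hosting none. None of 9 epithelial and 8 blood and immune markers hosted a circRNA. Fiber markers took 3.02% to 4.82% of junction reads in sham and 2.56% to 4.55% in ovariectomized libraries. Myoblast and satellite cell markers went the other way, with 0.113% to 0.206% in sham and 0.152% to 0.313% in ovariectomized libraries. The groups overlapped for both lists. Hosting a circRNA is not a measure of the gene's expression.

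The 9 circles lie on the plus strand of chromosome 10 and reach over 66153 bp, from 51427528 to 51493680. The genome build is not given in the sources used here. Positions are those of the deposited table with starts counted from 1, and the chromosome number comes from the LMO7 entry (gene ID 101102742, protein coding) of the ARS-UI_Ramb_v3.0 gene table. The circles used 5 start sites and 8 end sites. Since the gene is on the plus strand, the start is the acceptor side of the junction and the end is the donor side.

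The start site 51439764 was shared by 4 circles, each with its own end. The shortest of them, novel_circ_0010445, ended at 51440766 and spanned 1003 bp. Next, novel_circ_0010446 ended at 51442349 and spanned 2586 bp. The most abundant LMO7 circle, novel_circ_0010448, ended at 51471346 and spanned 31583 bp. The longest, novel_circ_0010450, ended at 51491073 and spanned 51310 bp. All 4 list the same 279 bp piece, 51439764 to 51440042, as their first. The deposited table calls that piece an exon in 3 of them and an intron in novel_circ_0010450.

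A second start site, 51441627, was shared by 2 circles. The shorter, novel_circ_0010452, ended at 51443395 and lists only an exon of 30 bp. The longer, novel_circ_0010453, ended at 51471346, the same end as novel_circ_0010448, and lists the exon of 162 bp from 51471185 to 51471346. The remaining circles shared neither site with another member. They were novel_circ_0010443 (51427528 to 51432836, 3 listed exons), novel_circ_0010457 (51452201 to 51459845, 1 exon of 118 bp) and novel_circ_0010460 (51491459 to 51493680, 1 exon of 109 bp). Of the other 8 members, 5 lie inside the interval of novel_circ_0010448.

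In 8 of the 9 LMO7 circles, 1 end of the junction lay away from any exon or intron piece listed for that circle. Only novel_circ_0010448 had both ends at the border of a listed exon, and its 3 exons of 279, 115 and 162 bp add up to the listed spliced length of 556 bp. The end of novel_circ_0010446 lay 2307 bp past its last listed exon, and that of novel_circ_0010445 724 bp past it. The start of novel_circ_0010452 lay 1739 bp and that of novel_circ_0010453 29558 bp ahead of the first listed exon. The end of novel_circ_0010457 lay 7527 bp past its exon and that of novel_circ_0010450 51031 bp past its piece. For these 8 circles the listed spliced length therefore leaves out whatever sequence adjoins the unlisted end.

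Across the other hosts, 68.9% of 8712 circRNAs had both ends at a listed border and 30.9% had 1. Weighted by junction reads, circles with both ends at a listed border held 72.9% of LMO7 reads and 89.6% of the reads of the rest. Among the 443 hosts with at least 5 circRNAs, the median share with both ends at a border was 71.4%, and 3 hosts, LMO7 included, were at or below the 11.1% of LMO7. The other hosts, named after their values were seen, were HDAC4 with 0 of 5 and NSD3 with 0 of 6. These are descriptions, since LMO7 was picked with results known. The end of novel_circ_0010446 lies 723 bp downstream of the start shared by novel_circ_0010452 and novel_circ_0010453, counted inclusively, and no piece listed for any circRNA of the series overlaps that stretch.

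**Figure D1:**
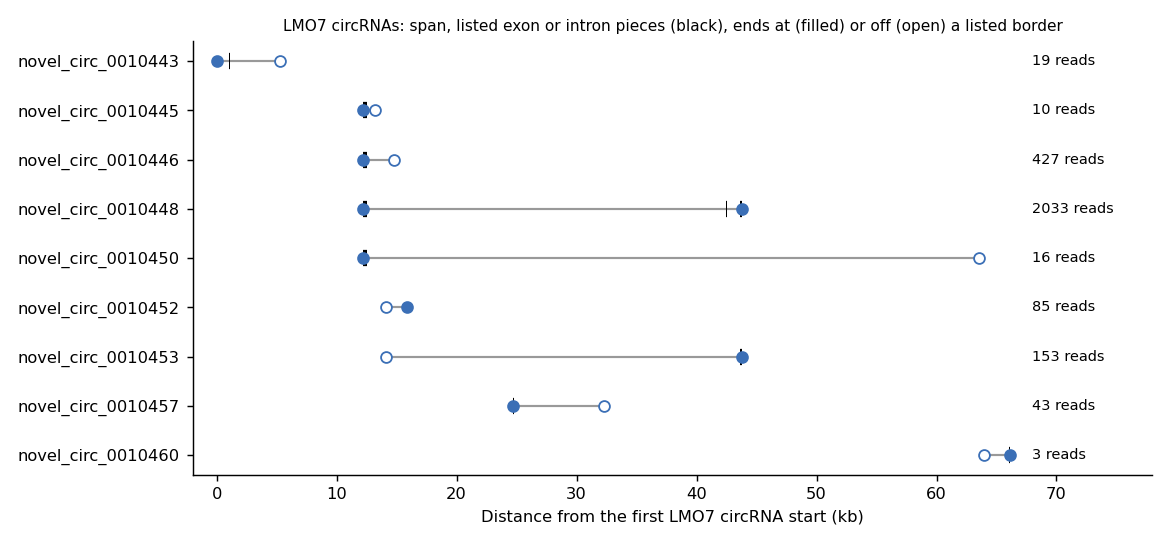
Span of each LMO7 circRNA in kb from the first start site (x axis), 1 line per circRNA, with its total junction reads over 10 libraries at the right. Black blocks are the listed exon or intron pieces, and circles are junction ends, filled where they fall on a listed border and open where they do not. A start is shared by 4 lines, 2 lines share a second start, and novel_circ_0010448 alone has both ends filled.

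LMO7 was a major circRNA host by reads. Its circles had 2789 junction reads together, which put it 13th of 3436 hosts, while 65 hosts had more circRNAs. Among the 17 hosts with exactly 9 circRNAs, the median was 249.0 reads, and MORC3, with 3171, was the host above LMO7. Most LMO7 reads came from novel_circ_0010448, with 2033 reads or 72.9% of the total, the 14th most abundant circRNA of the series. The next, novel_circ_0010446, had 427 reads, and both together held 88.2%. Among the 443 hosts with at least 5 circRNAs the leading circle held a median of 49.3% of reads (interquartile range 37.8% to 67.4%), and 20.3% of these hosts had a higher share than LMO7.

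The leading circle novel_circ_0010448 was listed in all 10 libraries. Sham replicates 1 to 5 gave 233, 255, 143, 186 and 168 reads across its junction. In ovariectomized replicates 1 to 5 it had 239, 172, 126, 367 and 144. Ovariectomized replicate 4 was the highest and replicate 3 the lowest in unscaled reads, both in the same group, and the groups overlapped. Scaled for library size, ovariectomized replicate 5 became the lowest library, at 89.2 normalized reads against 133 to 318 in the other ovariectomized libraries.

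The second circle, novel_circ_0010446, which shares the start of the leading one, was also in all 10 libraries. Replicates 1 to 5 had 23, 54, 31, 47 and 29 of its junction reads in sham and 33, 28, 35, 86 and 61 after ovariectomy. Ovariectomized replicate 4 stood above the others. The number of leading-circle reads per read of novel_circ_0010446 ran from 3.96 to 10.1 in sham and from 2.36 to 7.24 in ovariectomized libraries. Sham replicate 1 had the highest ratio and ovariectomized replicate 5 the lowest.

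The third circle, novel_circ_0010453, which shares the end of the leading one, was listed in 9 libraries. Its junction counts were 22, 10, 3, 11 and 15 in sham and 27, 18, 20 and 27 in ovariectomized replicates 1 to 4. Ovariectomized replicate 5 had no entry for it, although that library was the deepest. The circle with the same start but a nearer end, novel_circ_0010452, was highest there. It had 31 reads in ovariectomized replicate 5, against 7, 9 and 11 in replicates 2 to 4 and no entry in replicate 1. Sham replicates 1 to 3 gave 7, 15 and 5 reads, and replicates 4 and 5 had no entry.

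Among the minor circles, novel_circ_0010457 had 43 reads in 6 libraries, 3 of each group, with 4 to 11 reads where listed. In 5 libraries, 2 sham and 3 ovariectomized, novel_circ_0010443 was listed with 3 to 5 reads. The longest circle, novel_circ_0010450, had 9 reads in sham replicate 1 and 7 in ovariectomized replicate 5. The shortest, novel_circ_0010445, had 10 reads in ovariectomized replicate 5 alone, and novel_circ_0010460 had 3 in ovariectomized replicate 4 alone. Entries start at 2 reads in the deposited table, so a circle without an entry may still have had a read.

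**Figure D2:**
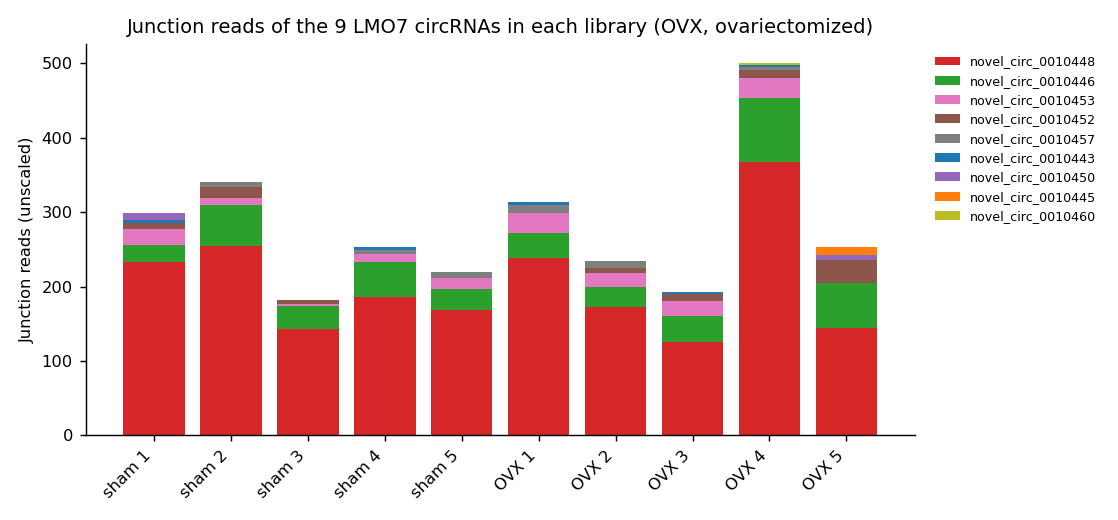
Unscaled junction reads (y axis) of the 9 LMO7 circRNAs in each of the 10 libraries (x axis; OVX, ovariectomized), stacked in order of total reads. The novel_circ_0010448 segment is the largest in every library, the total runs from 182 reads in sham replicate 3 to 501 in ovariectomized replicate 4, and ovariectomized replicate 5 lacks the novel_circ_0010453 segment.

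Whether ovariectomy moved these circles was tested with limma voom on all circRNAs that passed a filter on low counts, with Benjamini-Hochberg adjusted p-values and a threshold of 0.05. Of the 9 members, 3 passed the filter and held 93.7% of LMO7 reads. None of the 3 passed the threshold in limma voom, none had an unadjusted p under 0.05, and none passed in limma trend. Over all 738 circRNAs tested, 0.0% passed the adjusted threshold and 5.69% had an unadjusted p under 0.05. The normalized reads of the groups overlapped for all 3, while 1.36% of the tested circRNAs did not overlap.

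For novel_circ_0010448, normalized junction reads (reads over each library's scaling factor, factors having a geometric mean of 1) were 223 ± 75.2 in sham and 192 ± 91.2 after ovariectomy (SD, n = 5 each). On the log2 scale ovariectomized over sham came to -0.30 ± 0.33 (SE; limma adjusted p = 0.879). Without ovariectomized replicate 5 the mean after ovariectomy was 218 ± 81.5 (SD, n = 4) and the log2 fold change -0.00317. Without ovariectomized replicate 4 that fold change was -0.51, and neither passed.

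For novel_circ_0010446 the means were 40.8 ± 15.2 in sham and 42.4 ± 18.3 after ovariectomy (SD, n = 5 each). Its log2 fold change of 0.05 ± 0.31 had a limma adjusted p of 0.968 and changed sign when sham replicate 1, sham replicate 5 or ovariectomized replicate 4 was left out (-0.03, -0.05 and -0.16).

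For novel_circ_0010453 the direction depended on the fit and on 1 library, ovariectomized replicate 5. Having no entry there, it was entered as 0 reads, against 18.3 to 27.9 normalized reads in the other ovariectomized libraries. Its means were 14.0 ± 9.29 in sham and 18.1 ± 10.7 after ovariectomy (SD, n = 5 each), higher after ovariectomy, while the fitted log2 fold change came to -1.43 ± 1.48 (limma adjusted p = 0.861). The value moved with the processing, to -0.72 and -0.65 with the looser filters and to -0.16 and -0.01 in limma trend (pseudocounts 0.5 and 1), and it turned to 0.52 with the replicate number as a block. Without ovariectomized replicate 5 the mean after ovariectomy was 22.7 ± 4.05 (SD, n = 4). The log2 fold change was then 1.05 ± 0.45, with an unadjusted limma p of 0.0323 and an adjusted p of 0.860. Leaving out any of the other ovariectomized libraries gave -2.25 to -2.68, a move of over 1.5 times. The adjusted p ran from 0.705 to 0.996 over all alternatives.

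Of the 6 members below the filter, 3 had entries in at least 5 libraries, and a two-sided exact permutation test over all relabellings was run on each. Normalized reads of novel_circ_0010452 were 6.51 ± 7.51 in sham and 9.07 ± 6.88 after ovariectomy (SD, n = 5 each), with an exact p of 0.54. Without ovariectomized replicate 5, its highest library at 19.2, the mean after ovariectomy was 6.54 ± 4.50 (SD, n = 4), close to that in sham. Those of novel_circ_0010457 were 3.84 ± 3.62 and 5.00 ± 5.47, with an exact p of 0.73, and those of novel_circ_0010443 were 2.09 ± 3.00 and 1.98 ± 1.89, with an exact p of 1. After Benjamini-Hochberg adjustment over the 3, each was 1. The other 3 members had 1 or 2 entries and entered only the limma fit with no filter beyond 1 read, where their adjusted p-values were 0.802 for novel_circ_0010445, 0.745 for novel_circ_0010450 and 0.839 for novel_circ_0010460.

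Summed over its circles, LMO7 reached 290.0 ± 96.4 normalized junction reads in sham and 274 ± 110.0 after ovariectomy (SD, n = 5 each). Replicates 1 to 5 summed to 402, 385, 195, 248 and 220.4 in sham and to 326, 237, 206, 438 and 161 after ovariectomy. Both groups ranged widely, and the spread within a group exceeded the difference between the means. The fitted log2 fold change came to -0.11 ± 0.27 (SE; limma adjusted p = 0.921), in a fit of 751 hosts of which 0.0% passed the threshold and 5.86% had an unadjusted p under 0.05. The sign turned without sham replicate 1 (0.01), without sham replicate 2 (0.03), without ovariectomized replicate 5 (0.09) and with library totals as the only scaling (0.02). With library totals the median over all hosts moved as well, from -0.02 to 0.12. In such samples, any change in cells that make these circles and any change in circles per cell could not be told apart.

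**Figure D3:**
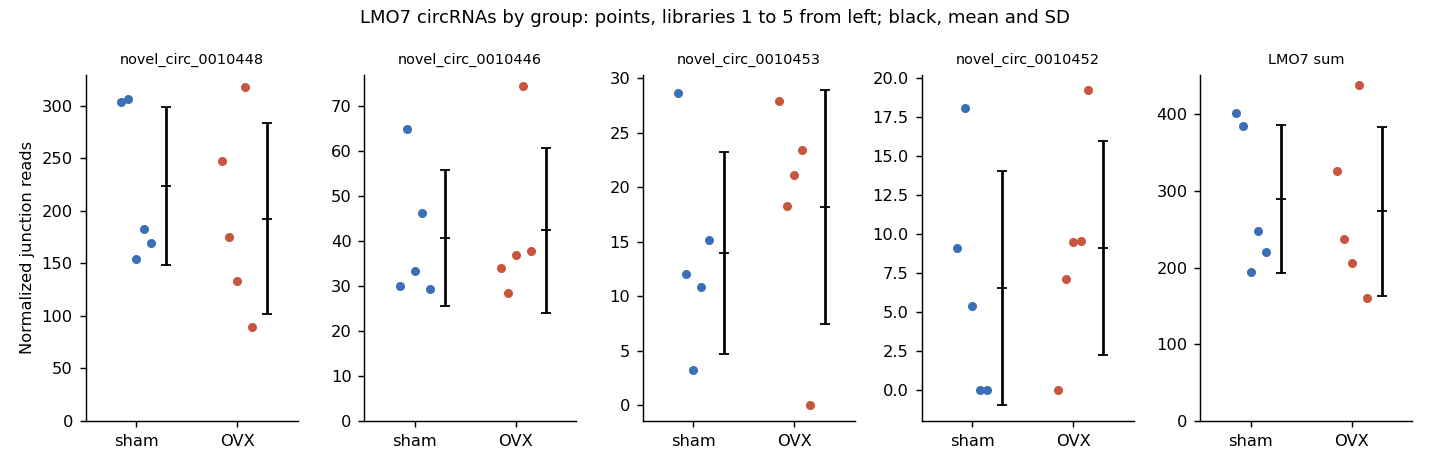
Normalized junction reads (y axis, a separate scale in each panel) of 4 LMO7 circRNAs and of the LMO7 sum in sham and ovariectomized (OVX) libraries. Points are libraries, replicates 1 to 5 from left to right, and the black mark gives mean and SD. The groups overlap in every panel, and the lowest OVX point for novel_circ_0010453 is replicate 5, which has no entry.

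In the authors' deposited table, none of the 9 LMO7 circRNAs had an adjusted p under 0.05, against 0.0115% of the 8721 circRNAs in it. The p-values of the 9 in the authors' deposited table ran from 0.374 to 0.967. It gives novel_circ_0010453 authors' means of 13.4 in sham and 17.5 in ovariectomized libraries, the order of the means above.

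The mix of LMO7 circles was compared through 4 measures per library with two-sided exact permutation tests, in which p cannot go below 0.00794. The share of novel_circ_0010448 in LMO7 junction reads was 77.9%, 75.0%, 78.6%, 73.5% and 76.7% in sham replicates 1 to 5. It was 76.1%, 73.2%, 65.3%, 73.3% and 56.9% in ovariectomized replicates 1 to 5. Ovariectomized replicates 3 and 5 were lowest, replicates 2 and 4 lay just under the lowest sham library, and replicate 1 lay within the sham range. The 95% Wilson interval was 50.8% to 62.9% in ovariectomized replicate 5 and 67.8% to 78.6% in sham replicate 4, the lowest of its group. These intervals cover counting error only.

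The mean share was 76.3% ± 2.09 in sham and 69.0% ± 7.84 after ovariectomy (SD, n = 5 each). The difference of -7.39 percentage points had an exact permutation p of 0.0397 and, adjusted over the 4 measures, of 0.159, which did not pass. It was lower than every sham library in 4 of 5 ovariectomized libraries. Without ovariectomized replicate 5 the difference was -4.38 points with an adjusted exact p of 0.254. Without ovariectomized replicate 1 it was -9.18 points with an adjusted exact p of 0.0317, the 1 alternative that passed. That replicate was the 1 ovariectomized library within the sham range. Leaving it out separates the groups fully, and the exact p is then the smallest this test can give. Over all alternatives the adjusted exact p ran from 0.0317 to 0.444. With the replicate number as a block, the exact sign-flip p cannot go below 0.0625, so that alternative could not pass.

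On the means over 5 libraries, the difference went to novel_circ_0010446 and to the remaining 7 circles. The share of novel_circ_0010446 was 14.5% ± 4.27 in sham and 16.4% ± 5.43 in ovariectomized libraries, and that of the remaining 7 circles was 9.17% ± 3.62 and 14.7% ± 3.53 (SD, n = 5 each). The share of novel_circ_0010446 was highest in ovariectomized replicate 5, at 24.1%. In ovariectomized replicates 1 to 4 it was 10.5% to 18.1%, within the sham range of 7.69% to 18.6%. The remaining 7 circles held 9.58% to 16.6% in those replicates and 4.40% to 14.4% in sham. By splice site, the start at 51439764 held 88.6% to 95.6% of LMO7 reads in sham and 83.4% to 90.4% in ovariectomized libraries. The second start, at 51441627, held a mean of 6.53% ± 2.24 and 10.8% ± 2.97 (SD). The end at 51471346 held 77.9% to 85.3% in sham and 75.6% to 84.7% in ovariectomized replicates 1 to 4, but 56.9% in replicate 5. The groups overlapped for each of these site shares, and their differences were not tested.

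**Figure D4:**
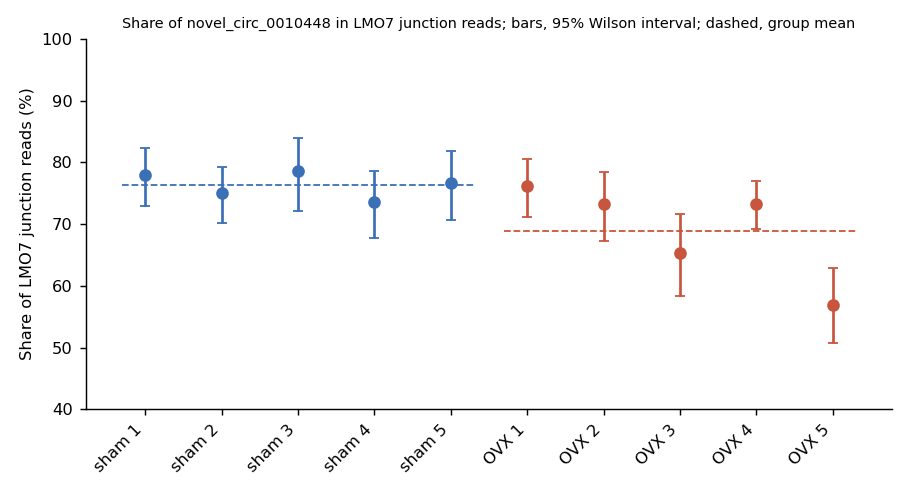
Share of novel_circ_0010448 in the LMO7 junction reads of each library (y axis, percent, starting at 40; x axis, libraries; OVX, ovariectomized). Bars are 95% Wilson intervals and dashed lines group means of 76.3% and 69.0%. Ovariectomized replicate 5, at 56.9%, is the lowest library.

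The other 3 measures did not pass either. The number of LMO7 circles listed per library was 6, 5, 4, 5 and 4 in sham and 5, 5, 5, 7 and 5 in ovariectomized replicates 1 to 5, with an adjusted exact p of 0.688. With counts thinned to the smallest library total, the difference in means was 0.564 circles, with an adjusted exact p of 0.497. LMO7 took 0.642% ± 0.239 of all junction reads in sham and 0.655% ± 0.269 after ovariectomy (SD, n = 5 each), with an adjusted exact p of 0.921. That share ran from 0.365% in sham replicate 3 (95% Wilson interval 0.316% to 0.422%) to 1.07% in ovariectomized replicate 4 (0.978% to 1.16%). It depends on the library totals, which include the reads of SENP6, another host gene. Without SENP6 reads the means changed order, to 0.711% ± 0.236 in sham and 0.671% ± 0.268 after ovariectomy (SD, n = 5 each). Ovariectomized replicate 5 was then the lowest library, at 0.388%, with sham replicate 3 at 0.486%.

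Non-junction reads, the second count in the deposited table, have no definition in the labels or headers; they were read as those touching a circle's ends without crossing the junction. For novel_circ_0010448 there were 372, 229, 205, 404 and 220 in sham and 376, 447, 358, 483 and 275 in ovariectomized replicates 1 to 5. Per junction read this was 1.48 ± 0.464 in sham and 2.05 ± 0.654 after ovariectomy (SD, n = 5 each), with an adjusted exact permutation p of 0.333. Sham replicate 2 was the 1 library with more junction than non-junction reads, at a ratio of 0.898.

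The other LMO7 circles had far more non-junction than junction reads. Summed over libraries with an entry, the ratio was 1.66 for novel_circ_0010448 and 10.6 for novel_circ_0010446, against a median of 23.5 over all circRNAs. It was 26.1 for novel_circ_0010453 and 25.9 for novel_circ_0010450, near that median. Above it were novel_circ_0010445 at 44.8, novel_circ_0010452 at 48.4, novel_circ_0010460 at 74.7, novel_circ_0010457 at 89.7 and novel_circ_0010443 at 109.1. A lower ratio than that of the leading circle was found in 4.88% of all circRNAs. In libraries with an entry, non-junction reads were 205 to 483 for novel_circ_0010448, 258 to 709 for novel_circ_0010446, 265 to 669 for novel_circ_0010453 and 367 to 990 for novel_circ_0010452, ranges that overlap. Junction reads of these circles, in the same order, were 126 to 367, 23 to 86, 3 to 27 and 5 to 31. The ratio therefore in part restates junction abundance. On the reading above, circles that share an end would also count some of the same non-junction reads.

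**Figure D5:**
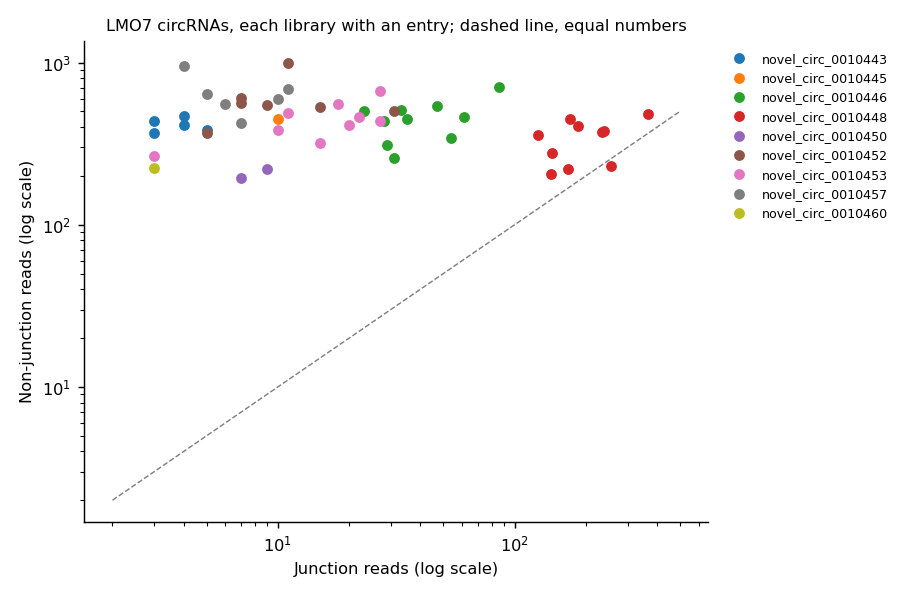
Non-junction reads (y axis, log scale) against junction reads (x axis, log scale) for every library with an entry, 1 color per LMO7 circRNA. The dashed line marks equal numbers. Points of novel_circ_0010448 lie at the right, close to the line, with ratios of 0.898 to 2.84, and the other circles lie far above it at similar heights.

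The hosts whose circRNA sums followed LMO7 most closely over the 10 libraries were MEF2A, MRPL22, PARL, PBRM1 and SNX13. Pearson's r of log2(normalized reads + 1) with LMO7 was 0.868 for MEF2A, which encodes a muscle transcription factor, and 0.859 for MRPL22, a mitochondrial ribosomal protein gene. It was 0.813 for PARL, a mitochondrial protease gene, 0.782 for PBRM1, a chromatin remodeling subunit gene, and 0.776 for SNX13, a sorting nexin gene. These are the 5 highest of 750 hosts, whose median was -0.03 and whose 95th percentile was 0.538, and all points share their libraries and scaling. The lowest r, at -0.899, was larger in size than the highest. The 5 hosts were picked for their r over only 10 libraries, so the values are a description. SNX13 had 2821 junction reads from 10 circles, while MEF2A had 144.

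Genes that act with LMO7, or that belong to adherens junctions, were looked up among the hosts. Over the series, 751 of 3436 hosts had enough reads for a test. On the list of LMO7 partners and adherens junction genes, 11 of 31 hosted a circRNA, 3 were tested and none passed in either direction (limma voom, 0 at an unadjusted p under 0.05). Their median log2 fold change was -0.37, against -0.02 over all hosts tested. ACTN2, the alpha-actinin of the Z-disc, was at -0.37 ± 0.36 (SE), and NECTIN3, which encodes an adhesion receptor bound by afadin, at 1.35 ± 0.72. AFDN itself hosted a circRNA below the filter, and EMD, the emerin gene, hosted none.

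On the list of nuclear envelope genes, 6 of 16 hosted a circRNA and 4 were tested, none past the threshold, with a median log2 fold change of -0.06. SUN1, a protein of the inner nuclear membrane that holds nesprins, was at -1.03 ± 0.61, from 86.4 ± 37.1 normalized reads in sham and 49.7 ± 32.8 after ovariectomy (SD, n = 5 each). SYNE1, which encodes nesprin-1, was at -0.02 ± 0.28 and TMPO, which encodes lamina-associated polypeptides, at 0.01 ± 0.33.

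On the list of LIM, PDZ-LIM and calponin homology proteins, 18 of 43 hosted a circRNA, and LMO7 had 2789 of their 4113 junction reads. Of the 3 tested, LMO7 included, none passed. LIMS1, which encodes the focal adhesion adapter PINCH1, showed 75.9 ± 27.4 normalized reads in sham and 57.0 ± 13.9 after ovariectomy (SD, n = 5 each) and a log2 fold change of -0.40 ± 0.29. LDB3, which encodes the Z-disc protein ZASP, was at -0.97 ± 0.72. The closest relative of LMO7 on the list, LIMCH1, hosted a circRNA below the filter. The limma adjusted p of the named hosts of the 3 lists lay between 0.756 and 0.991.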

How the data were processed

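RNA of 10 samples was sequenced from directional libraries, per the labels' protocols; the submitters' processing notes name HISAT2. Which program called circRNAs, on which build and annotation, is not given in the sources used here. The authors deposited whole-number junction and non-junction read counts packed in comma-separated lists with sample names, and spans and lengths in bp. A library without an entry was entered as 0. The lists also hold 10 names outside the series, which were ignored. A second table holds, per the file headers, the authors' group means of normalized read signal, log2 fold changes (sham over ovariectomized) and p-values.

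The packed counts were unpacked per library, and limma voom was used on the whole table (limma 3.58.1, statmod 1.5.0, R 4.3.3). It was run with trimmed-mean-of-M-values scaling (30% of log ratios and 5% of abundances trimmed), robust variances and Benjamini-Hochberg adjustment. CircRNAs, and reads summed per host, entered the test with 10 or more reads, at median library depth, in 5 or more libraries and 15 or more in total, which left 738 circRNAs with 68.0% of junction reads, and 751 hosts. The functions were tested on simulated data. Exact permutation tests were two-sided. Named in full were circles in at least 5 libraries, the 5 hosts most correlated with LMO7, and the 3 tested hosts with most reads per list; the others are given by their entries, and 1 host of the lists is not reported here. Further marker lists gave 6 of 9 endothelial, 3 of 10 fibroblast, 3 of 8 smooth muscle and pericyte, 1 of 7 adipocyte and 1 of 7 Schwann cell and neuron genes with a circRNA. The members and lists were chosen with earlier results of these data known. Alternatives covered scaling, filters, variance models, a replicate block and leaving out each library.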

Additional observations from a re-analysis of the deposited data

Results flagged for a closer look

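Values far from the others of their group were looked for in 38 sets of 5 libraries, and 7 stood out; for normally spread values about 1 set in 20 would do so by chance, and a circle with a lone entry in its group always does. Of that last kind were novel_circ_0010445, with 6.20 normalized junction reads in ovariectomized replicate 5, novel_circ_0010450, with 11.7 in sham replicate 1 and 4.34 in ovariectomized replicate 5, and novel_circ_0010460, with 2.60 in ovariectomized replicate 4. Ovariectomized replicate 4 had 74.6 normalized reads of novel_circ_0010446, against 28.5 to 37.8 in the rest of the group, and it listed 7 LMO7 circles where the others listed 5. Ovariectomized replicate 5 had 67061 junction reads in total, where the others had 39045 to 46968.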

How the results depend on the processing

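The 3 LMO7 circRNAs that passed the main filter were fitted under 17 alternatives and passed the threshold in none; the other 6 were fitted only under the looser filters, 3 under both and 3 with no filter beyond 1 read, and did not pass there. Over all circRNAs, the count of 0 became 4 with entries of 2 or more reads in at least 5 libraries. It became 30 with no filter beyond 1 read and 3 with the replicate number as a block. The looser filters tested 2690 and 8721 circRNAs, against 738 in the main fit, while the block fit also tested 738. The cause was not tested. Over hosts, 0 became 2, 7 and 1 under these 3 settings and 1 without sham replicate 4, ovariectomized replicate 2 or ovariectomized replicate 5. At an unadjusted p under 0.05, 9 circRNAs were higher and 33 lower after ovariectomy, against 27 and 12 with library totals alone and 20 and 12 without ovariectomized replicate 5. Leaving out each library gave log2 fold changes of -0.51 to -0.00317 for novel_circ_0010448, -0.16 to 0.22 for novel_circ_0010446, -2.68 to 1.05 for novel_circ_0010453 and -0.28 to 0.0875 for the LMO7 sum, which was 0.0244 with library totals alone. The difference in the share of the leading circle ran from -9.18 to -4.38 percentage points. That in the number of circles ran from 0.200 to 0.900, and was 0 with entries of 5 or more reads. That in the LMO7 share of all junction reads ran from -0.0900 to 0.0904 points and was -0.0401 with SENP6 reads left out of the library totals. Leaving them out raised the mean share from 0.642% to 0.711% in sham and from 0.655% to 0.671% in ovariectomized libraries. Why SENP6 reads differed between libraries was not tested. Same-numbered libraries correlated at -0.110 to 0.185 in their deviations from the group means, and 1 of 5 sham libraries matched its own number best. Correlations this weak cannot decide whether the numbers pair the samples. With the replicate number as a block, the log2 fold change was -0.10 for the LMO7 sum, -0.25 for novel_circ_0010448 and 0.52 for novel_circ_0010453, where it turned sign. With 5 libraries a group and a standard error of 1.48, novel_circ_0010453 allows no statement on its direction.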
